A study of Mus musculus with 5 samples.

Results

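Has1 and Pcolce2 fibroblasts of the mouse colon were 457 of the 6005 cell barcodes kept here, and 457 of the 4436 barcodes with fibroblast collagen transcripts. A member had a unique molecular identifier (UMI, the tag of 1 captured RNA molecule) for at least 2 of Col1a2, Col3a1, Col6a1, Col6a2, Mmp2 and Dcn, which makes it collagen-gated. It also had a UMI of at least 2 of the 5 marker genes Has1, Pcolce2, Cilp, Gpr133 and Col8a1, and of fewer than 2 of Rbp4, Aldh1a1, Tmem158, Enho and Bean1. Of 464 collagen-gated barcodes with 2 or more markers, 7 were left out by the Rbp4 genes. The comparator was the other 3979 collagen-gated barcodes.

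The cells were profiled by Drop-seq, in which each cell meets a barcoded bead in a droplet and its polyadenylated RNA is caught on that bead. All came from colon mesenchyme of untreated C57/BL6 mice aged 10 weeks, after removal of epithelium with EDTA and DTT and digestion with Collagenase XI and Dispase. Biological replicate 1 was loaded in collections 1A and 1B and biological replicate 2 in collections 2A, 2B and 2C. The labels give no contrast of treatment or genotype and do not say how many animals made a replicate. All comparisons are thus between cells of the same suspensions. Replicate was a block, so p-values measure how the difference between populations varied over 2 replicates, with spread shared across genes. They do not measure the spread between the replicates themselves.

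Adventitial fibroblasts lie in the outer coat of vessels and, in the gut, mainly in the submucosa, away from the epithelium. In mouse tissues they are known for Pi16, Cd34 and Dpp4, and for a loose matrix rich in fibrillin and hyaluronan. Hyaluronan is an unsulfated sugar chain made at the cell membrane from UDP-glucuronic acid and UDP-N-acetylglucosamine, and it is extruded as it grows.

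Members made up 11.8%, 11.2%, 9.06%, 9.97% and 8.67% of the collagen-gated barcodes in collections 1A, 1B, 2A, 2B and 2C. The mean over the replicates was 10.4% ± 1.64 (SD, n = 2), with 11.5% in replicate 1 (95% exact binomial interval 10.2 to 12.9%) and 9.20% in replicate 2 (8.05 to 10.4%). These intervals cover counting error only. Members held a median of 1897 UMIs, against 1386 in the other collagen-gated cells, and a gate that asks for 2 detected genes passes deep barcodes more easily. With every cell thinned to 1000 UMIs the share was 10.4% ± 1.46 (SD, n = 2). No barcode sequence of a member was shared between collections.

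Of the genes that define the gate, Has1, a hyaluronan synthase, was seen in 75.7% of members and 5.65% of the other collagen-gated cells. None of 525 leukocyte barcodes outside the gate had a Has1 UMI at a median of 1228 UMIs, which allows up to 0.571% of such barcodes to have a Has1 UMI at this depth and says nothing of cells that express it undetected. Pcolce2, which enhances the enzyme that trims procollagen, was seen in 61.9% of members and 1.63% of the others. Col8a1, a short network-forming collagen, was seen in 61.3% of members and 5.68% of the others, the matrix protein gene Cilp in 38.3% and 1.66%, and the adhesion receptor gene Gpr133 in 34.4% and 2.01%. In the leukocyte barcodes these 4 genes were seen in at most 0.571%. The gate used these genes, so the shares are a description. Has1 and Pcolce2 were seen together in 213 members (46.6%), and Cilp and Gpr133, the least often joined pair, in 37 (8.10%).

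Each marker was also high in cells gated on the other 4. Has1 had 1980, 2044, 2738, 1382 and 2845 UMIs per 1000000 UMIs of the population (CPM) in the 311 cells gated without it, in collections 1A, 1B, 2A, 2B and 2C. It had 212, 110.0, 117, 151 and 137 CPM in the remaining 4125 collagen-gated cells. All 5 collections of gated cells lay above all 5 of the remaining cells. The log2 fold changes (± SE, edgeR) were 4.04 ± 0.13 for Has1, 4.10 ± 0.15 for Pcolce2, 3.75 ± 0.19 for Cilp, 3.52 ± 0.20 for Gpr133 and 3.49 ± 0.16 for Col8a1. Here and below the SE was derived from edgeR's F statistic, as the absolute log2 fold change divided by the square root of F. The 5 markers were picked together from an earlier clustering of these same barcodes, so that they go together is a description and no test of it is given.

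**Figure D1:**
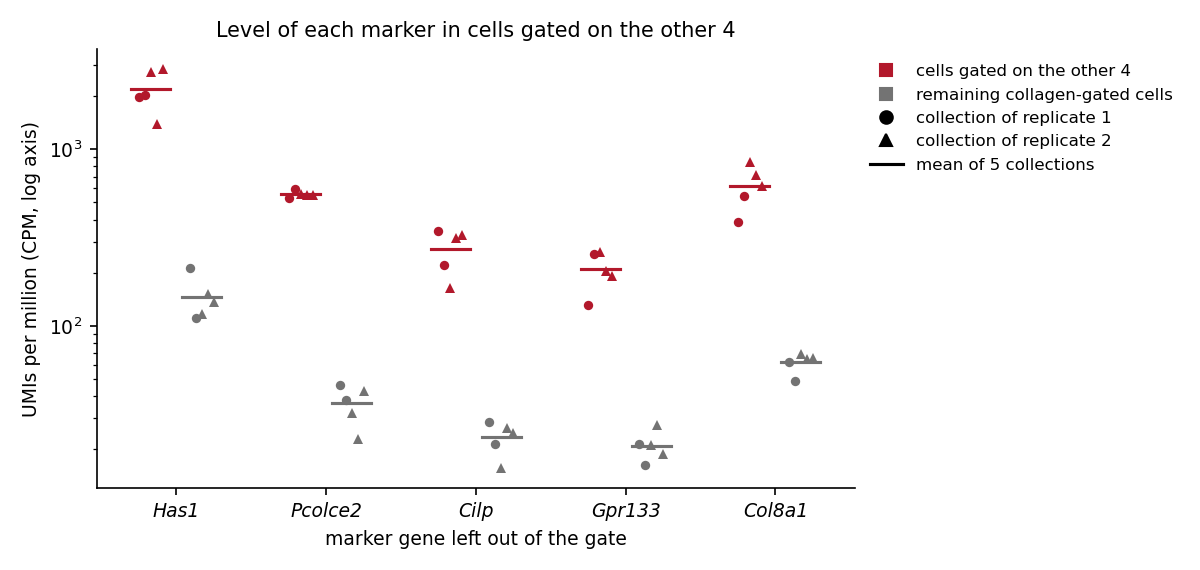
Each point is a droplet collection, red for cells gated on the other 4 marker genes and grey for the remaining collagen-gated cells, with the level of the left-out gene in CPM on a log axis. For every one of the 5 genes the red points lie above the grey ones, and the log2 fold changes run between 3.49 for Col8a1 and 4.10 for Pcolce2.

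The label of adventitial-type cells was set beside 26 adventitial fibroblast genes, none of them in the gate. The list was chosen with earlier results of these data known, so its counts are no independent check of the name. Of the 25 that could be tested, 19 were higher in members than in the other collagen-gated cells and 0 were lower, with 6 not called. Across all 10935 genes tested outside the gates, 9.51% were called higher and 9.79% lower by edgeR's quasi-likelihood test at an adjusted p under 0.05. List counts below against the other collagen-gated cells are to be read beside these shares. The median log2 fold change was 1.71 over the list and -0.04 over all genes tested. Pi16, a peptidase inhibitor gene, had 456, 417, 861, 622 and 776 CPM in the members of collections 1A, 1B, 2A, 2B and 2C. In the other collagen-gated cells it had 11.8, 11.4, 18.1, 12.0 and 17.5 CPM. The lowest collection of members stood far above the highest of the others, with a log2 fold change of 5.62 ± 0.16 and an adjusted p of 1.21e-16. Pi16 was seen in 42.0% of members, 2.01% of the other collagen-gated cells and 0.762% of the leukocyte barcodes.

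Among the other adventitial genes, Cd34, a surface sialomucin, had 639 and 606 CPM in the members of replicates 1 and 2, against 209 and 218 CPM in the others (log2 fold change 1.75 ± 0.12, adjusted p = 3.97e-10). Cd55, which shields cells from complement, had 1042 and 1139 CPM in members, against 193 and 194 CPM in the others (2.70 ± 0.12, adjusted p = 1.82e-13). Sema3c, a secreted semaphorin, had 703 and 636 CPM in members, against 106 and 106 CPM in the others (2.87 ± 0.12, adjusted p = 1.82e-13). The microfibril genes Fbn1 (2.26 ± 0.12, adjusted p = 1.39e-11) and Mfap5 (2.08 ± 0.12, adjusted p = 2.06e-11), the ectonucleotidase gene Entpd2 (1.80 ± 0.14, adjusted p = 3.96e-09) and the tetraspanin gene Cd81 (1.11 ± 0.14, adjusted p = 3.92e-06) were higher too. Every one of these was higher in members in 5 of 5 collections.

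Not every gene known from adventitial cells was called. Dpp4 was near the limit of detection in both populations, with 4.17 and 9.18 CPM in members and 6.64 and 8.17 CPM in the others, and 6 of 457 members had a UMI. Ly6c1 had 236 and 301 CPM in members and 291 and 265 CPM in the others, and these values overlapped (log2 fold change 0.15 ± 0.14, adjusted p = 0.516). Ly6c1 was called higher in members without barcodes that carry markers of other cell classes (0.75, adjusted p = 3.43e-05). The name adventitial-type refers here to Pi16, Cd34 and the genes above, and not to Dpp4. These genes are no independent check of it.

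The hyaluronan pathway was measured from its sugar precursors to the proteins that bind the chain. Of 21 genes in a hyaluronan list 18 could be tested, of which 11 were higher in members, 3 were lower and 4 were not called, with a median log2 fold change of 0.75. Stretches of 250 bases before the start of 3 genes are shown, because Has1 marks the cells and Gfpt2 and Tnfaip6 were the hyaluronan genes seen in most members. They are from RefSeq on GRCm38.p6. Capitals mark CCAAT and the AP-1 letters TGANTCA, each searched on both strands (CCAAT reads ATTGG on the other).
Has1, chr17:17855189-17855438, minus strand: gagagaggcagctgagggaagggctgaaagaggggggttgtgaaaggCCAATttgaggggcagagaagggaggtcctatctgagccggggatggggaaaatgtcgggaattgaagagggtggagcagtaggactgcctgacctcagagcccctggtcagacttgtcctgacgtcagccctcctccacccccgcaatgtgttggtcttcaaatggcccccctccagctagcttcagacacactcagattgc
Gfpt2, chr11:49793905-49794154, plus strand: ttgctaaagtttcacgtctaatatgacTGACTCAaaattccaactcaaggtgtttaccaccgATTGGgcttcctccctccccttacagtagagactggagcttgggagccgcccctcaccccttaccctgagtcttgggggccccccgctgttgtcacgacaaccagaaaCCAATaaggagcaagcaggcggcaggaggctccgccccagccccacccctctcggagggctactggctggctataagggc
Tnfaip6, chr2:52037863-52038112, plus strand: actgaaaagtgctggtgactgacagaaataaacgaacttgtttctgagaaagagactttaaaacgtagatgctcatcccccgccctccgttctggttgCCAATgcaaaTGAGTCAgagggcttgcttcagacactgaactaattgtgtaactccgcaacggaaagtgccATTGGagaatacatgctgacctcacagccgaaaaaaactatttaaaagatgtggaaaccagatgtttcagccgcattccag
The hyaluronan genes searched were Has1 of the gate and Gfpt2, Ugdh, Ugp2, Uap1, Tnfaip6 and Ptx3, while Has2 had no matched window. Apart from Has1 they were picked as genes called higher in members, and they are not the whole hyaluronan list. CCAAT stood in a window of 5 of these 7 matched genes, and in 37.5% of 27025 genes. The AP-1 letters stood in 2 of the 7, and in 7.82% of all genes. Of the 25 genes named by fold change 18 were matched, of which 8 held CCAAT and 4 the AP-1 letters. An EBF motif, also searched, stood in 0 of the 7, 0 of the 18 and 0.914% of all genes. A match of letters is a description and no site of binding.

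Gfpt2, whose enzyme commits glucose carbon to UDP-N-acetylglucosamine, had 1682, 1506, 1907, 1483 and 1999.8 CPM in the members of collections 1A, 1B, 2A, 2B and 2C. In the other collagen-gated cells it had 107, 105, 87.6, 77.5 and 73.4 CPM. The groups did not come near each other, and the log2 fold change was 4.41 ± 0.14 (adjusted p = 1.32e-15). Gfpt2 was seen in 63.2% of members, 10.98% of the others and 1.90% of leukocyte barcodes. Uap1, the last step to UDP-N-acetylglucosamine, had 209 and 253 CPM in the members of replicates 1 and 2, against 66.4 and 62.8 CPM in the others (2.04 ± 0.15, adjusted p = 2.21e-09). The paralog Gfpt1 was higher by less, at 68.9 and 68.9 CPM in members against 46.2 and 54.1 CPM in the others (0.67 ± 0.22, adjusted p = 0.0342), and its call was lost without collection 1A (adjusted p = 0.179).

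Ugdh, which makes UDP-glucuronic acid, had 1094, 776, 1071, 1339 and 1438 CPM in members of the 5 collections. It had 118, 111, 136, 127 and 131 CPM in the others. Members were higher in every collection (log2 fold change 3.37 ± 0.12, adjusted p = 9.44e-15). Ugp2, which feeds Ugdh with UDP-glucose, had 315 and 315 CPM in members, against 80.2 and 92.1 CPM in the others (2.08 ± 0.14, adjusted p = 3.12e-10). The second synthase gene, Has2, had 123 and 117 CPM in members, against 18.8 and 18.3 CPM in the others (2.90 ± 0.22, adjusted p = 2.28e-09). Has3 could not be tested, with 0 UMIs in members.

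Tnfaip6, whose product loads heavy chains onto hyaluronan, had 2262, 2359, 2219, 2048 and 2085 CPM in members of the 5 collections. It had 322, 276, 366, 319 and 309 CPM in the others. The spread within each population was small beside the gap (log2 fold change 3.02 ± 0.12, adjusted p = 1.04e-13). Ptx3, a pentraxin that joins such a matrix, had 98.1 and 115 CPM in members, against 7.74 and 11.3 CPM in the others (3.69 ± 0.28, adjusted p = 1.62e-09). Collection 1B was the low one among members, at 49.9 CPM. Cd44, a hyaluronan receptor, went the other way, with 209 and 308 CPM in members, against 385 and 400.4 CPM in the others (-0.41 ± 0.14, adjusted p = 0.0407). The Cd44 call was lost without collection 1A (adjusted p = 0.184).

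**Figure D2:**
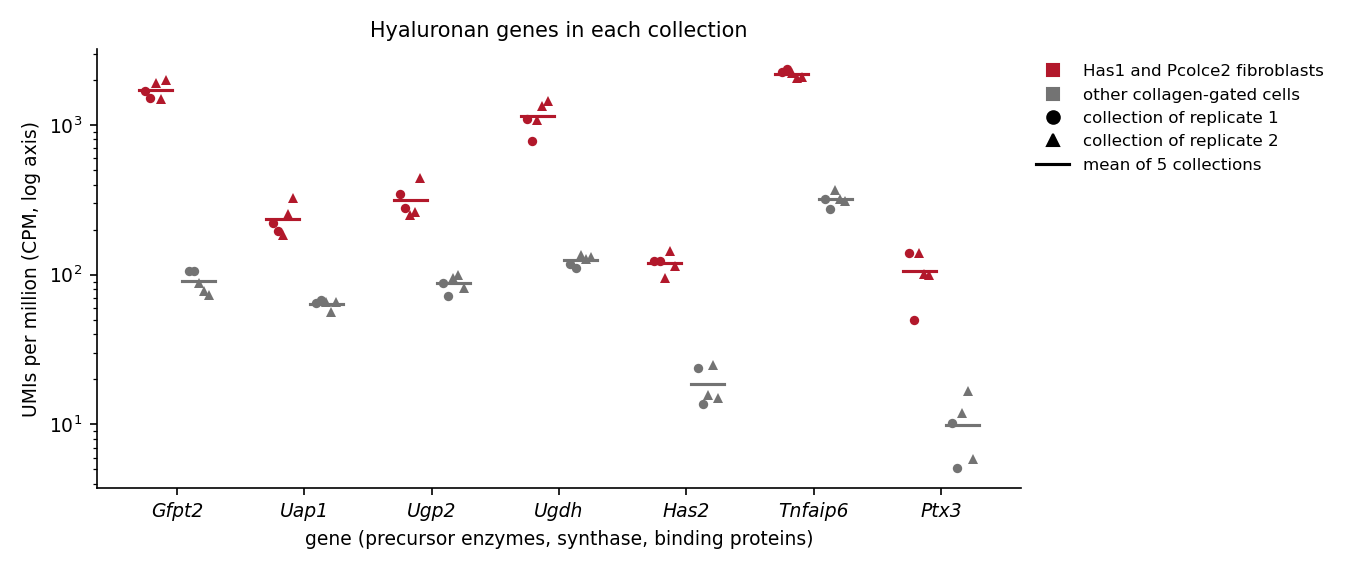
Points give the level of 7 hyaluronan genes in each of 5 collections, in CPM on a log axis, for Has1 and Pcolce2 fibroblasts (red) and the other collagen-gated cells (grey). Horizontal lines are means over collections. No red point overlaps the grey points of its gene, and Tnfaip6 had the tightest members, from 2048 to 2359 CPM.

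The comparator also held cells that were not fibroblasts alone. At least 2 markers of some other cell class were seen in 14.0% of members and 39.3% of the other collagen-gated cells. Smooth muscle was the most frequent class, with at least 2 of its markers in 9.41% of members and 20.0% of the others. Its markers summed to 311 and 195 CPM in members, against 1470 and 1147 CPM in the others. Blood endothelial markers summed to 276 and 145 CPM in members, against 1410.5 and 1033 CPM in the others, and macrophage markers to 144 and 138 CPM in members, against 468 and 677 CPM in the others. Of 8 mesothelial markers 4 (Msln, Upk3b, Upk1b and Lrrn4) had no UMI in members, and the 8 summed to 10.4 and 13.8 CPM in members, against 24.3 and 25.3 CPM in the others. Of 7 lymphoid markers of T, natural killer and innate cells, 4 (Cd3e, Cd3g, Trbc2 and Nkg7) had no UMI in members, and the 7 summed to 8.35 and 23.0 CPM in members, against 194 and 137 CPM in the others. With such barcodes left out of both populations, the adventitial list had 21 genes higher and 0 lower, and the hyaluronan list 8 higher and 1 lower, beside 11.3% higher and 8.61% lower of all 8209 genes tested. Gfpt2, Ugdh, Ugp2, Uap1, Has2, Tnfaip6 and Ptx3 were then still higher in members.

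A second comparison set the members against 3 other collagen-gated populations, each gated in the same way. These were 222 cells with at least 2 of the Rbp4 genes, 393 with at least 2 of F3, Plau, Saa3, Niacr1 and Bcr, and 488 with at least 2 of Edil3, Stmn2, C4b, Serpina3n and Osr1. Cells that met several gates were left out, which kept 405 of the 457 members: 13 members met the Plau gate and 42 the Stmn2 gate. Of 7127 genes tested, 795 (11.2%) were higher in members and 569 (7.98%) lower against the Rbp4 gate. Against the Plau gate 749 (10.5%) were higher and 1021 (14.3%) lower, and against the Stmn2 gate 654 (9.18%) were higher and 459 (6.44%) lower. The Plau gate also carried endothelial transcripts: members were lower there for Selp (log2 fold change -5.87), Lyve1 (-4.93) and Cdh5 (-4.21). Selp and Cdh5 were not called against the Rbp4 or Stmn2 gates, while Lyve1 was lower against the Stmn2 gate too (-3.10). How many of the 1021 lower genes this touches was not tested. Against all 3 gates 227 of the 7127 genes were higher and 116 lower.

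Gfpt2, Uap1, Ugp2, Ugdh, Has2, Tnfaip6 and Ptx3 were called higher in members against each of the 3 gates. Gfpt2 had 1751 and 1995 CPM in the 405 members, against 76.5 and 76.5 CPM in the Rbp4 gate, 81.9 and 64.8 CPM in the Plau gate, and 60.8 and 92.1 CPM in the Stmn2 gate. The 3 gates lay close together and far below the members, with log2 fold changes of 4.81, 4.75 and 4.78. Ugdh had 1012 and 1397 CPM in members, 91.8 and 153 CPM in the Rbp4 gate, 70.5 and 72.0 CPM in the Plau gate, and 185 and 193 CPM in the Stmn2 gate. Tnfaip6 had 2471 and 2319 CPM in members, 176 and 276 CPM in the Rbp4 gate, 177 and 212 CPM in the Plau gate, and 470.4 and 522 CPM in the Stmn2 gate. For both genes the Stmn2 gate was the highest of the 3, and for Tnfaip6 its log2 fold change was 2.45 (adjusted p = 1.92e-10). Has2 had 132 and 118 CPM in members, against 38.2 and 21.3 CPM in the Rbp4 gate, 0 and 3.601 CPM in the Plau gate, and 22.5 and 26.3 CPM in the Stmn2 gate.

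Most adventitial genes were higher in members against each of the gates. Of its 23 genes tested there, 19 were higher in members against the Rbp4 gate, 19 against the Plau gate and 16 against the Stmn2 gate, and 0 were lower against any. Pi16 stayed low in all 3, at 0 and 12.8 CPM in the Rbp4 gate, 5.72 and 9.002 CPM in the Plau gate, and 9.003 and 6.58 CPM in the Stmn2 gate, with 464 and 877 CPM in members. Clec3b, a secreted tetranectin, had 1007 and 944 CPM in members, 268 and 289 CPM in the Rbp4 gate, 36.2 and 70.2 CPM in the Plau gate, and 977 and 1057 CPM in the Stmn2 gate. Its difference between members and the Stmn2 gate missed the threshold (log2 fold change 0.12, adjusted p = 0.695), as did that of the surface gene Cd248 (0.11, adjusted p = 0.795). Cd34, at 673 and 644 CPM in members and 410 and 458 CPM in the Stmn2 gate, differed by a log2 fold change of 0.77 (adjusted p = 0.00414). Differences between these contrasts were not tested.

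**Figure D3:**
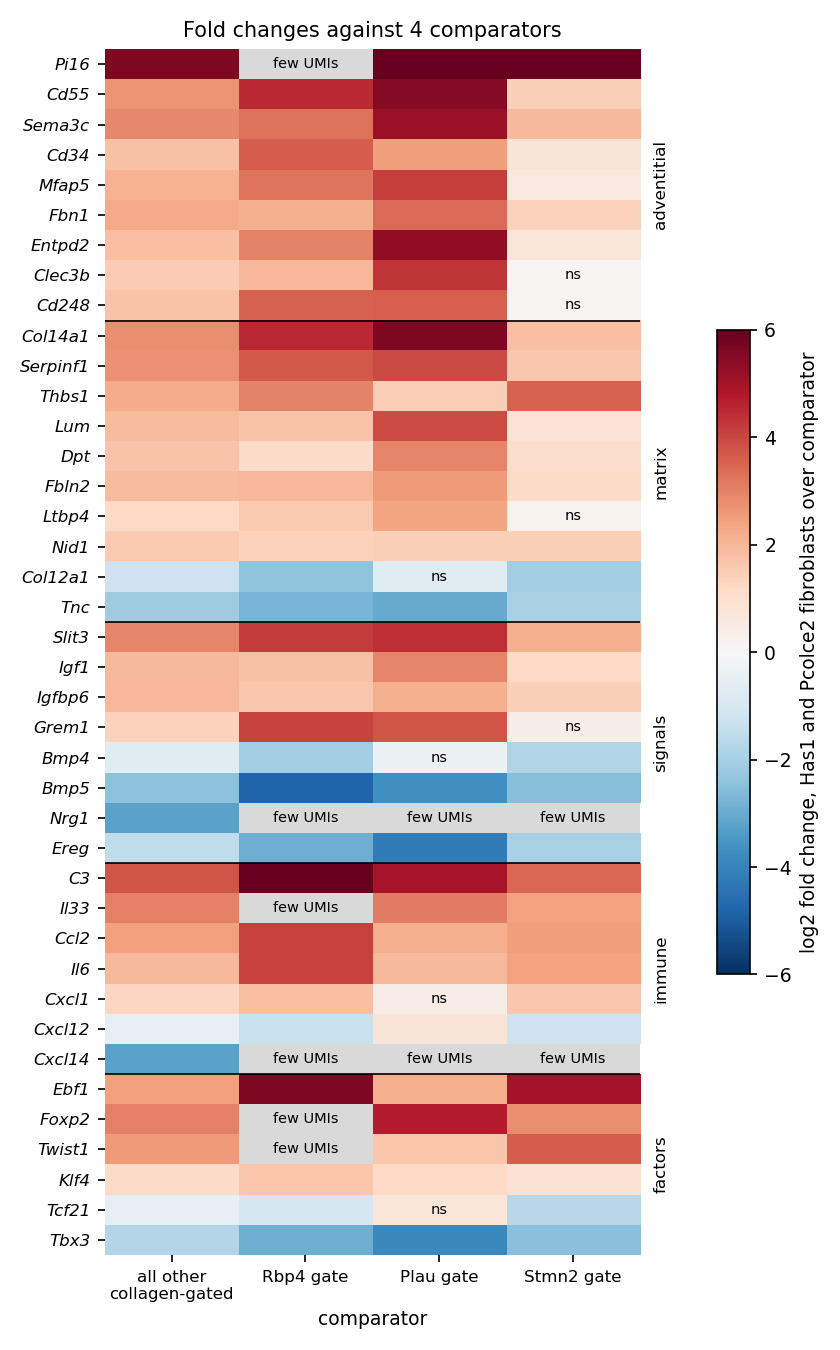
Colours give the log2 fold change of members over each of 4 comparators (columns) for genes of 5 kinds (rows), red where members were higher and blue where they were lower, with the scale ending at 6 in each direction. The mark ns stands for an adjusted p of 0.05 or more, and grey for 3 or fewer UMIs in members or comparator. Pi16, Sema3c, Col14a1 and C3 are red in every coloured column, while Clec3b and Cd248 are near white against the Stmn2 gate.

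The gene rule named 25 genes higher in members by fold change: Pi16, Sfrp4, Gfpt2, Ackr4, Gpr64, Adamtsl3, Gas1, C3, Npy1r, Ptx3, Prlr, Lrrn4cl, Scara5, Ugdh, Flrt2, Slc4a4, Ifi205, Tnfrsf11b, Foxp2, Hspb8, Tnfaip6, Il33, Cmah, Pi15 and Slit3. The rule asked for an adjusted p under 0.05, at least 50 CPM in each replicate of the higher population and the same direction in all 5 collections, which 560 genes met. Ackr4, Gpr64 and Adamtsl3 had at most 4.22 CPM in either replicate of the others. Sfrp4 (2.77 CPM), Npy1r (3.10 CPM) and Slc4a4 (3.94 CPM) were as low in 1 replicate. These genes passed the filter on low counts only through the members, so they could hardly have been called lower. Log2 fold changes ran down to 2.95 ± 0.15 for Slit3, the ligand of Robo receptors, which had 286 and 315 CPM in members, against 46.7 and 42.8 CPM in the others (adjusted p = 3.94e-12). Scara5, a ferritin receptor, had 159 and 184 CPM in members, against 16.04 and 20.6 CPM in the others (3.43 ± 0.20, adjusted p = 2.56e-11). Receptors for neuropeptide Y (Npy1r, 3.75 ± 0.37, adjusted p = 1.04e-07) and prolactin (Prlr, 3.68 ± 0.30, adjusted p = 6.77e-09) were among them. Prlr had 142 CPM in the members of replicate 1 and 52.8 CPM in those of replicate 2, against 11.3 and 5.91 CPM in the others, so its level varied more between replicates than that of Slit3. Hspb8, a small heat-shock protein gene, had 534 and 558 CPM in members, against 82.4 and 71.8 CPM in the others (3.03 ± 0.13, adjusted p = 1.58e-13). All 25 were called higher by DESeq2 as well.

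Of 29 tested genes of fibrillar collagens and their assembly, 21 were higher in members, 1 was lower and 7 were not called, with a median log2 fold change of 0.85. Col14a1, a collagen that sits on fibril surfaces, had 1771, 1760, 1467, 1439.9 and 1516 CPM in members of the 5 collections. It had 295, 258, 293, 229 and 254 CPM in the others, which leaves no overlap (2.80 ± 0.12, adjusted p = 1.64e-13). Serpinf1 (2.76 ± 0.16, adjusted p = 2.37e-11), the thrombospondin gene Thbs1 (2.23 ± 0.12, adjusted p = 5.46e-12) and the proteoglycan gene Lum (1.92 ± 0.12, adjusted p = 1.51e-10) were higher. Col12a1, also a fibril-associated collagen, was the gene called lower, with 45.9 and 101 CPM in members, against 164 and 225 CPM in the others (-1.22 ± 0.19, adjusted p = 4.76e-05). Tnc, a matrix glycoprotein of remodelling tissue, had 79.3 and 87.3 CPM in members, against 462 and 389.7 CPM in the others (-2.15 ± 0.17, adjusted p = 2.71e-09). Without barcodes of other classes the fibrillar list had 10 genes higher and 4 lower, and against the Stmn2 gate 8 higher and 3 lower of 29, so its breadth depended on the comparator.

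Of 20 elastic fibre and microfibril genes tested, 13 were higher in members, 1 was lower and 6 were not called (median 0.89). Fbln2, a fibulin, had 516 and 613 CPM in members, against 152 and 197 CPM in the others (1.91 ± 0.12, adjusted p = 1.51e-10). Eln, which encodes elastin, had 60.5 and 66.6 CPM in members, against 26.5 and 29.8 CPM in the others (1.38 ± 0.25, adjusted p = 0.000322), and this call was lost without barcodes of other classes (adjusted p = 0.1504). That setting left 6 genes of the list higher and 2 lower. Of 19 genes of the list tested against the gates, 4 were higher and 1 lower against the Stmn2 gate. Against the Rbp4 gate 9 were higher and 1 lower, and against the Plau gate 14 and 0, so this breadth also depended on the comparator. Basement membrane genes split, with 6 of 17 higher and 7 lower, beside 9.51% and 9.79% of all genes tested. Nid1, a nidogen, was higher (1.57 ± 0.13, adjusted p = 9.07e-09), as was Lamb2 (1.36 ± 0.18, adjusted p = 6.91e-06), while Col4a5 had 14.6 and 27.6 CPM in members, against 59.4 and 68.4 CPM in the others (-1.41 ± 0.30, adjusted p = 0.00148).

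Among 23 matrix proteases and inhibitors tested, 12 were higher in members and 3 lower, beside 9.51% and 9.79% of all genes tested. Adamts5 had 127 and 145 CPM in members, against 24.1 and 22.8 CPM in the others (2.74 ± 0.20, adjusted p = 1.49e-09). Adamts1 had 2524 and 1915 CPM in members, against 923 and 673 CPM in the others (1.69 ± 0.11, adjusted p = 3.64e-10). Both encode proteases that cut hyaluronan-binding proteoglycans such as versican. The stromelysin gene Mmp10 was at 2.09 and 2.30 CPM in members, a single UMI in each replicate, against 53.4 and 33.2 CPM in the others.

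Signals for neighbouring cells differed by family. In the BMP, TGF-beta and activin list 12 of 29 genes were higher in members and 8 lower, and the median log2 fold change was 0.14. Over all genes tested 9.51% were higher and 9.79% lower. Of the 12 higher genes, 1 had fewer than 10 UMIs in each replicate of the others and passed the filter only through the members. Bmp4, a ligand, had 220.4, 313, 485, 203 and 256 CPM in members of the 5 collections. It had 502, 438, 697, 648 and 664 CPM in the others, so that members were lower in each collection although collection 2A of members lay above 1B of the others (-0.75 ± 0.13, adjusted p = 0.000225). Bmp5, a second ligand, had 25.05 and 29.8 CPM in members, against 163 and 187 CPM in the others (-2.46 ± 0.23, adjusted p = 5.03e-08). Id1, a target gene of BMP signalling, was lower (-1.54 ± 0.16, adjusted p = 2.50e-07). The BMP antagonist gene Grem1 was higher, with 344 and 236 CPM in members, against 121 and 140 CPM in the others (1.37 ± 0.16, adjusted p = 1.75e-06). Against the Stmn2 gate Grem1 missed the threshold (log2 fold change 0.33, adjusted p = 0.487).

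In the Wnt list 4 of 14 genes were higher and 2 lower, and 8 were not called, beside 9.51% higher and 9.79% lower of all genes tested. Sfrp4, a secreted antagonist, had 62.6 and 124 CPM in members, against 2.77 and 6.48 CPM in the others (4.53 ± 0.33, adjusted p = 1.35e-09). Rspo3, which amplifies Wnt signals, had 71.0 and 32.1 CPM in members, against 16.9 and 19.4 CPM in the others (1.72 ± 0.34, adjusted p = 0.000834). Wnt4 was lower, with 12.5 and 16.1 CPM in members, against 46.2 and 38.9 CPM in the others (-1.37 ± 0.36, adjusted p = 0.00911), and its call was lost without collection 1A (adjusted p = 0.122). Of 9 Hedgehog genes 1 was higher, which is near the share of all genes. It was the co-receptor gene Gas1, with 173 and 149 CPM in members, against 15.8 and 9.57 CPM in the others (3.88 ± 0.22, adjusted p = 2.06e-11).

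Of 42 growth factors and receptors tested, 14 were higher in members and 12 lower, beside 9.51% and 9.79% of all genes tested. Igf1 had 409 and 459 CPM in members, against 129 and 133 CPM in the others (1.93 ± 0.13, adjusted p = 1.88e-10), and the binding protein gene Igfbp6 moved the same way (1.97 ± 0.13, adjusted p = 1.98e-10). Igfbp3 was lower, with 125 and 66.6 CPM in members, against 484 and 347 CPM in the others (-1.91 ± 0.17, adjusted p = 1.71e-08). Genes of 2 epidermal growth factor ligands, chosen after their values were seen, were lower: Nrg1 had 12.5 and 9.18 CPM in members, against 141 and 95.7 CPM in the others (-3.23 ± 0.31, adjusted p = 7.29e-08), and Ereg had 85.6 and 91.8 CPM in members, against 299 and 287 CPM in the others (-1.52 ± 0.16, adjusted p = 4.54e-07). Both are ligands that act on epithelium. Nrg1 was seen in 4 of 457 members.

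Immune genes included both directions. In the list of chemokines, cytokines and receptors 11 of 36 were higher in members and 10 lower, beside 9.51% and 9.79% of all genes tested. Of the 11 higher genes, 1 had fewer than 10 UMIs in each replicate of the others and passed the filter only through the members. Ccl2, which draws monocytes, had 1091, 472, 1103, 709 and 740.15 CPM in members of the 5 collections. It had 187, 152, 173, 138 and 229 CPM in the others, and members were higher in each, with 1B the lowest (2.45 ± 0.12, adjusted p = 1.26e-12). Ccl2 was seen in 25.2% of members, 11.2% of the others and 17.1% of leukocyte barcodes, so it was not particular to fibroblasts. Il6 (1.95 ± 0.19, adjusted p = 7.31e-08), the alarmin gene Il33 (3.01 ± 0.26, adjusted p = 1.64e-08) and Tnfrsf11b, a decoy receptor (3.05 ± 0.26, adjusted p = 9.89e-09), were higher. Cxcl14 was lower, with 4.17 and 11.5 CPM in members, against 83.8 and 81.7 CPM in the others (-3.21 ± 0.38, adjusted p = 1.41e-06). Cxcl12 had 334 and 339.8 CPM in members, against 538 and 542 CPM in the others (-0.47 ± 0.12, adjusted p = 0.00928), but was higher in members than in the Plau gate (0.79, adjusted p = 0.00209).

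Of 11 complement genes tested, 6 were higher in members and 3 lower, beside 9.51% and 9.79% of all genes tested. C3, the central component of the cascade, had 990.0, 962, 695, 767 and 890 CPM in members of the 5 collections. It had 78.0, 77.3, 87.6, 59.0 and 56.7 CPM in the others (3.79 ± 0.13, adjusted p = 2.30e-15). Cd55, which acts on the same cascade, is given above. Clu was lower, with 8.35 and 16.1 CPM in members, against 104 and 82.5 CPM in the others (-2.74 ± 0.33, adjusted p = 2.13e-06).

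Of 48 transcription factors tested, 22 were higher in members and 9 lower, beside 9.51% and 9.79% of all genes tested. Of the 22 higher genes, 2 had fewer than 10 UMIs in each replicate of the others and passed the filter only through the members. Ebf1, a factor of mesenchymal and B cells, had 406, 435, 402, 485 and 448 CPM in members of the 5 collections. It had 93.6, 103, 97.0, 83.0 and 65.0 CPM in the others, a wide gap (2.47 ± 0.13, adjusted p = 9.66e-12). It had 15.3 and 8.50 CPM in the Rbp4 gate and 20.3 and 13.2 CPM in the Stmn2 gate, but 103 and 121 CPM in the Plau gate. Foxp2 (3.04 ± 0.24, adjusted p = 3.80e-09), Twist1 (2.54 ± 0.37, adjusted p = 2.55e-05), Prrx1 (3.15 ± 0.55, adjusted p = 0.000208) and Osr2 (4.52 ± 0.55, adjusted p = 2.61e-06) were higher, the last 2 from low levels of at most 3.10 CPM in the others. Klf4 was higher by less (1.17 ± 0.11, adjusted p = 9.33e-08). Tbx3 had 18.8 and 20.7 CPM in members, against 86.0 and 68.4 CPM in the others (-1.76 ± 0.29, adjusted p = 0.000101). Tcf21 was also called lower (-0.48 ± 0.15, adjusted p = 0.0314), a call that was lost without collection 1A (adjusted p = 0.241) or 2A (adjusted p = 0.134).

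Smaller lists followed. In the prostanoid and retinoid list 3 of 13 genes were higher and 5 lower. The prostacyclin synthase gene Ptgis was higher (2.36 ± 0.21, adjusted p = 3.02e-08). Rdh10, which oxidises retinol, was lower (-1.11 ± 0.17, adjusted p = 4.40e-05). Of 16 lipid handling genes 6 were higher and 5 lower, among them the receptor genes Vldlr (3.002 ± 0.43, adjusted p = 2.03e-05) and Lrp1 (1.51 ± 0.14, adjusted p = 5.44e-08), and lower Apoe (-1.77 ± 0.14, adjusted p = 3.44e-09), whose call was lost without barcodes of other classes (adjusted p = 0.0594). Of 20 immediate-early and heat-shock genes, which tissue digestion can raise, 8 were higher and 4 lower, and 5 and 9 without barcodes of other classes. These 20 genes took 3.26% ± 0.13 of UMIs in members and 3.07% ± 0.15 in the others (SD, n = 2), and the ranges overlapped in that replicate 2 had 3.17% in both.

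Of 24 genes of lamina propria and subepithelial fibroblasts, 14 were lower in members, 2 were higher and 8 were not called, with a median log2 fold change of -1.31. The list holds 10 genes of the Plau and Stmn2 gates, of which 6 (Edil3, Stmn2, Serpina3n, C4b, Osr1 and F3) were not called, and over the other 14 genes 10 were lower, with a median of -2.16. Adamdec1, a protease gene of lamina propria stroma, had 166, 467, 702, 441 and 619 CPM in members of the 5 collections. It had 2274, 1807, 2647, 2787 and 2563 CPM in the others (-2.23 ± 0.14, adjusted p = 1.29e-10). Ednrb, an endothelin receptor gene, was lower too (-3.02 ± 0.27, adjusted p = 2.37e-08). The 2 higher genes were Ptgis and Pdgfra. Pdgfra had 273 and 227 CPM in members, against 173 and 182 CPM in the others (0.71 ± 0.14, adjusted p = 0.000878), but its direction turned without barcodes of other classes (-0.11, adjusted p = 0.697) and against the Rbp4 gate (-0.64, adjusted p = 0.0344).

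The 15 lower genes named by the rule were Iglv1, Igkc, Selp, Lyve1, Igha, Emid1, Ccl4, Pcp4l1, Nrg1, Cxcl14, H2-M2, Cdh5, Tinagl1, Ednrb and Acta2. Several are known from other classes: immunoglobulin genes of plasma cells, endothelial Selp, Lyve1 and Cdh5, and Acta2 of contractile cells. Acta2 was also lower in members against the Rbp4 (log2 fold change -3.98), Plau (-2.52) and Stmn2 (-1.97) gates. It was still called lower by edgeR without barcodes of other classes (-1.47, adjusted p = 8.83e-05). Igkc had 132 and 108 CPM in members, against 2774 and 2721 CPM in the others (-4.31 ± 0.16, adjusted p = 1.25e-14), yet a UMI was seen in 19.0% of members, 20.9% of the others and 29.0% of leukocyte barcodes. The shares of cells lay close together while the CPM did not. Without barcodes of other classes its log2 fold change was -0.67 (adjusted p = 0.00396), and Lyve1 (-0.86, adjusted p = 0.395), Ccl4 (-0.46, adjusted p = 0.764) and Pcp4l1 (-1.32, adjusted p = 0.227) missed the threshold. Iglv1, Selp, H2-M2, Cdh5 and Tinagl1 could not be tested without those barcodes. DESeq2 on all barcodes did not call Iglv1 (adjusted p = 0.219). Iglv1 had no UMI in members, which allows up to 0.656% of cells with a UMI at this depth, and 124 and 361 CPM in the others. Nrg1, Emid1, Cxcl14 and Ednrb were as low without those barcodes, with log2 fold changes of -3.91, -3.90, -4.82 and -3.73.

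Members varied among themselves with the number of markers seen. There were 234 members with 2 markers, 136 with 3 and 87 with 4 or 5, at median depths of 1547, 2009 and 2307 UMIs, and 605 collagen-gated cells with 1 marker lay just outside the threshold at 1493 UMIs. Pi16 had 269 and 527 CPM in the members with 2 markers of replicates 1 and 2, and 53.3 and 46.4 CPM in the cells with 1 marker. Gfpt2 had 928 and 889.5 CPM in members with 2 markers, and 375 and 189 CPM with 1. Adamdec1 ran the other way, with 542 and 1224 CPM at 2 markers, and 1767 and 2180.2 CPM at 1. It was down to 102 and 135 CPM at 3 markers. Stmn2, the gene of another gate, had 334 and 382 CPM at 1 marker, 234 and 302 CPM at 2 and 20.4 and 42.7 CPM at 3. Cells with 0 markers had 171 and 157 CPM of Stmn2, so members with 2 markers lay above them in both replicates. Members with 2 markers lay between the cells with 1 and those with 3 for each of these 4 genes in both replicates. These values follow the rule's own count and are given as a description.

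**Figure D4:**
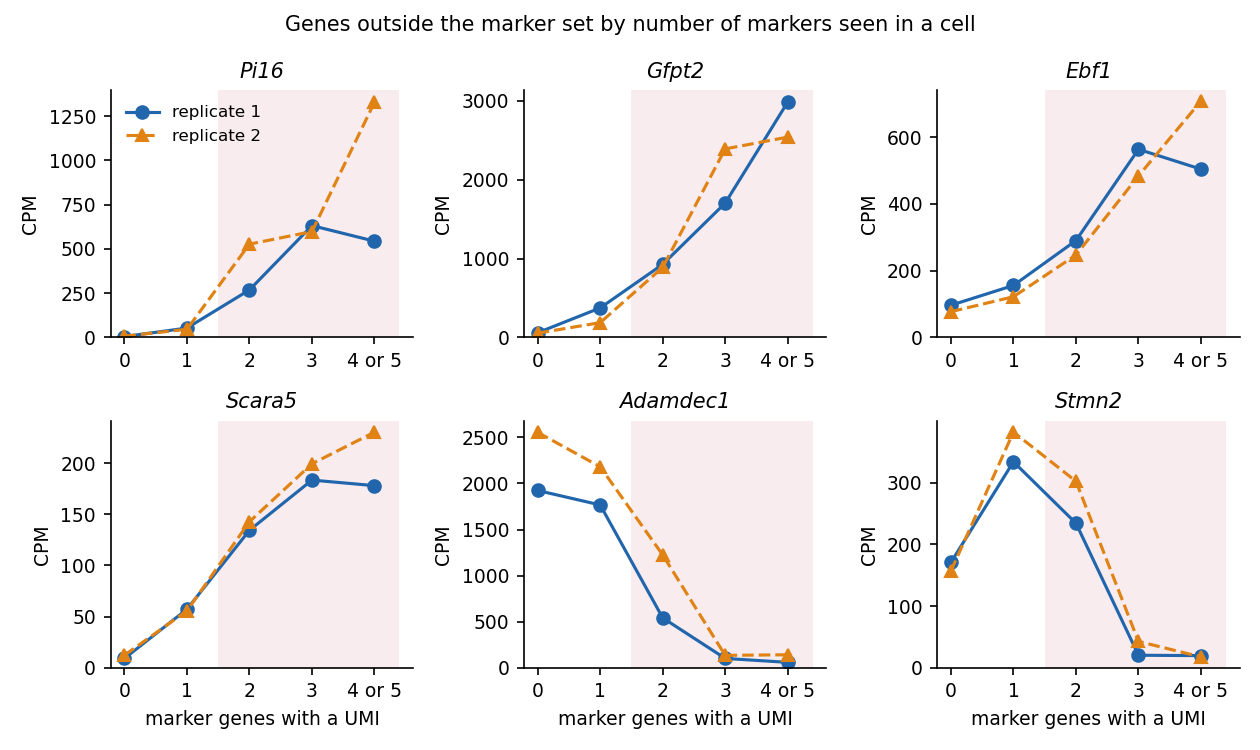
Lines give the level in CPM of 6 genes in collagen-gated cells with 0, 1, 2, 3 and 4 or 5 marker genes, for replicates 1 (blue) and 2 (orange), with members shaded. Pi16, Gfpt2, Ebf1 and Scara5 are higher at 2 or more markers than at 0 in both replicates, and Adamdec1 and Stmn2 are lower at 3 or more markers than at 0. Stmn2 is higher at 1 and at 2 markers than at 0.

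Pi16 also divided the members. A Pi16 UMI was seen in 192 members, at a median of 2058.5 UMIs per cell, and not in 265, at a median of 1683. A cell without a Pi16 UMI may still express the gene, so this is a description of sparse counts with no test. Ccl2 had 1319.7 and 1163 CPM in members with a Pi16 UMI, and 432 and 550.1 CPM in members without. The gap was uneven: collection 1A had 2124 CPM with and 446 CPM without, 1B had 538 and 414 CPM, and in 2B the order turned, at 703 CPM with and 716 CPM without. Ccl2 was seen in 28.6% of members with a Pi16 UMI and 22.6% of those without. Gfpt2 had 2178 and 2334 CPM in members with a Pi16 UMI, and 1182 and 1254 CPM without, and Scara5 had 233 and 253 CPM with and 105 and 112 CPM without. Grem1 ran the other way, at 164 and 76.9 CPM in members with a Pi16 UMI, and 476 and 401 CPM without, and so did Bmp4, at 159 and 181 CPM with and 339 and 466 CPM without. Rspo3 had 54.6 and 9.05 CPM in members with a Pi16 UMI, and 82.9 and 55.9 CPM without, but in collection 1A the order turned, at 50.3 CPM with and 25.1 CPM without. Has1 was high on both sides, at 2446 and 2705 CPM with and 1975 and 1734 CPM without.

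**Figure D5:**
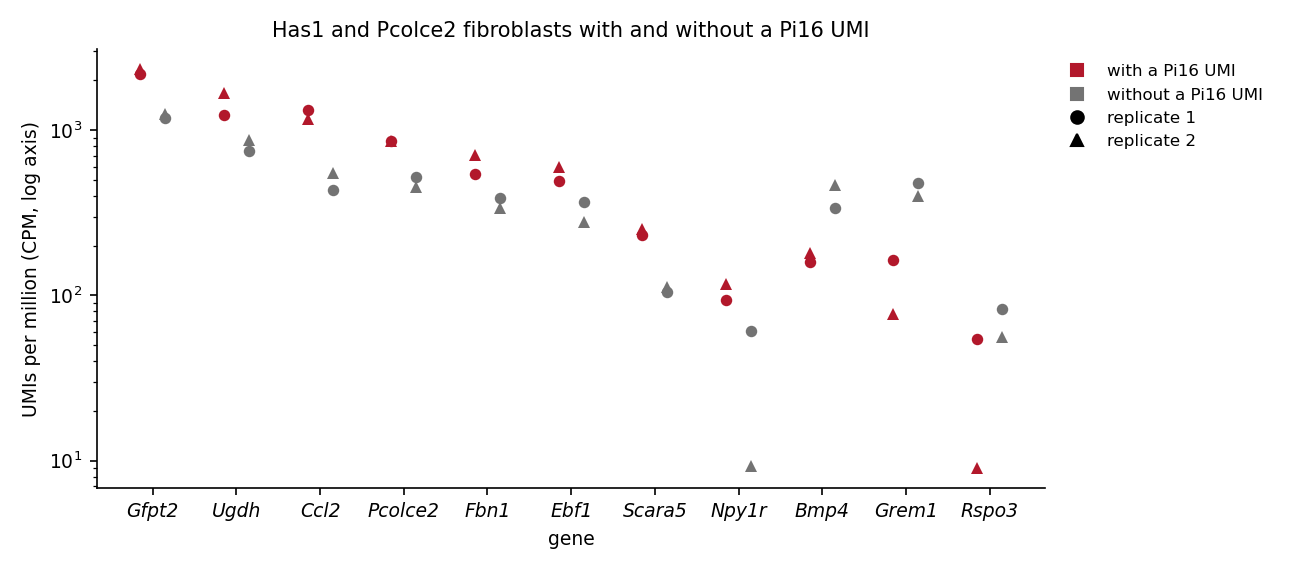
Points give the level of 11 genes in CPM on a log axis in members with (red) and without (grey) a Pi16 UMI, circles for replicate 1 and triangles for replicate 2. Red points lie above grey for Gfpt2, Ugdh, Ccl2 and Scara5 in both replicates and below grey for Bmp4, Grem1 and Rspo3 in both, although Ccl2 turned in collection 2B and Rspo3 in 1A.

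With a block for replicate the comparison with the other collagen-gated cells leaves 1 residual degree of freedom per gene, so its p-values rest on spread shared across genes. The markers came from a clustering of these barcodes, so the differences in genes that led that cluster are not independent of how members were found, and UMIs of a gene can reflect free RNA in droplets.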

How the data were processed

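The deposited files hold UMI counts per gene and cell barcode for 5 droplet collections, without normalisation by the authors. The submitters' processing notes name STAR 2.6 and the build mm10. How reads were counted, on which annotation, and how barcodes were chosen is not given in the sources used here, so reads of overlapping genes, antisense partners and paralogs (Ccl2 and Ccl7, Gfpt1 and Gfpt2) may have been split in ways not known.

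Filters on genes (at least 300) and mitochondrial UMIs (at most 10%) removed 1263 and 667 of 7935 barcodes and kept 6005, with 1461337 to 2953455 UMIs per collection. No doublet caller was run, and an alternative left out the 5% of barcodes with the most UMIs. Between collections 10 barcode sequences were shared, 6 of them kept and 0 of them in members.

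Counts were summed per biological replicate and population and tested (R 4.3.3) by the two-sided quasi-likelihood test of edgeR 4.0.16 after filterByExpr and TMM, replicate as a block because both sums of a replicate come from 1 suspension, Benjamini-Hochberg over all genes tested, threshold 0.05. CPM are UMIs per 1000000 of the population's sum. DESeq2 1.42.0 was an alternative. On simulated counts for 11106 genes with the members' and others' depths, 53 of 100 genes changed 2-fold and 98 of 100 changed 4-fold were called. Of 10906 unchanged genes 6 were called. The simulation gave all genes the same fixed spread and had no replicate effect. Changed genes were drawn only from those above a minimum expected count in members. These rates therefore need not hold for the real counts. The genes of the gates were fitted but are described with no test, apart from 10 of the Plau and Stmn2 gates in the count of lamina propria genes, which the members' rule did not use. Named genes were the 25 higher and 15 lower with the largest change at an adjusted p under 0.05, at least 50 CPM in each replicate of the higher population, and the same direction in 5 collections. Which genes of the 17 lists are named was chosen after their values were seen. Members, markers and lists were chosen with earlier results of these data known. Motif counts used the 250 bases before each RefSeq start (GRCm38.p6).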

Additional observations from a re-analysis of the deposited data

Results flagged for a closer look

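Of 46 sets of 5 collections, 1 had a collection that stood apart from the other 4 by more than the critical value. Cxcl14 in members was 36.2 CPM in collection 2B, with 4.54 CPM in the nearest of the others and 0 in the lowest, a gap of 0.875 of the whole range. Chance alone marks about 1 in 20 such sets. These levels rest on 7 UMIs in members.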

How the results depend on the processing

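Against the other collagen-gated cells 1040 genes were higher and 1071 lower. DESeq2 called 420 higher and 308 lower, thinning each cell to 1000 UMIs gave 284 higher and 208 lower, and leaving out barcodes of other classes gave 707 lower. Against the Rbp4 gate (795 higher, 569 lower) thinning gave 325 and 292 and DESeq2 396 and 281. Against the Plau gate (749, 1021) thinning gave 275 and 342 and DESeq2 364 and 476, and against the Stmn2 gate (654, 459) thinning gave 296 and 213 and DESeq2 301 and 157. Thinning tested fewer genes on fewer cells (7112 of 10961 genes in the first comparison). The cause of the other changes was not tested.

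Leaving out each collection in turn gave 778 to 1013 higher and 882 to 1071 lower against the others. It gave 525 to 675 and 396 to 615 against the Rbp4 gate, 540 to 661 and 653 to 943 against the Plau gate, and 440 to 608 and 288 to 440 against the Stmn2 gate. The counts of 525 (without 1A), 653 and 288 (both without 1B) were more than 1.5 times under the full ones. The left-out marker log2 fold changes ranged from 3.84 to 4.33 for Has1, 4.01 to 4.21 for Pcolce2, 3.68 to 3.78 for Cilp, 3.25 to 3.75 for Gpr133 and 3.34 to 3.66 for Col8a1. With 1 biological replicate alone no count could be given. Without the replicate block 879 and 955 genes were called against the others, and no count over all genes in any comparison moved by 1.5 times.

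The share of collagen-gated cells was 12.4% with a mitochondrial limit of 5%, 5.03% with 3 markers asked for and 14.2% without barcodes of other classes. Of the 40 named genes' values under the alternatives 738 kept their direction, and their call where tested, and 9 lost the call. All 9 were among the 15 lower genes. The 738 include 39 values of replicate 1 alone and 38 of replicate 2 alone, compared by direction with no test. Genes that could not be tested in a setting are not counted there. Of 34 counts of list genes higher or lower, DESeq2 and leaving out barcodes of other classes each moved 15 by over 1.5 times and thinning moved 26. With DESeq2 the hyaluronan list had 9 higher and 0 lower, with no adjusted p for Hmmr, and the calls of Gfpt1 (adjusted p = 0.495) and Cd44 (adjusted p = 0.323) were lost. Pdgfra turned to -0.11 without barcodes of other classes. Of 2111 calls, DESeq2 made 728 in the same direction, and without barcodes of other classes 1688 were tested, 1079 called in the same direction and 80 of opposite sign. The median log2 fold change of all genes was -0.04, and -0.12 with 3 markers or -0.41 with no filter on low counts. Depth limits genes with few UMIs, such as Dpp4 with 6 UMIs in members.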
